A study of Mus musculus with 12 samples.

Results

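Connexins are the channel proteins of gap junctions, and 4 of their genes, Gja1, Gjb2, Gjb5 and Gjb6, are described here on 12 Affymetrix arrays of cells sorted from mouse back skin. They were chosen by a measured value, the strong difference of Gjb2 signal between activated and quiescent Het stem cells, so the differences between sets among those 4 Het arrays are given without a test. The same arrays also enter the comparisons of fractions, which are tested, and those of genotypes, which are described only. The 4 genes are part of 18193 genes with a probe set of their own, and they are read by 9 of 45037 probe sets. All 4 passed the filter on low signals, in a table where 12749 of the 18193 genes passed it over the 12 arrays. Across the sorted fractions, Gja1, Gjb2 and Gjb6 were higher in hair germ than in bulge cells. Gjb5 was lower in hair germ than in total keratinocytes, and in bulge cells it was lower without passing the test. The hair germ result did not pass when the knockout total keratinocyte array of set 2 was left out. Between the sampling sets, Gjb2 was higher in set 2 in each of 6 pairs of arrays, among them the Het hair germ and Het bulge pairs of the choice.

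The arrays hold 3 fractions of 2 genotypes, each in 2 sets, and the genotypes concern Tgfbr2, which encodes a receptor for TGF-beta (type II). The cKO group carries the conditional knockout (TβRII-cKO in the labels) and the Het group (TβRII-Het) serves as its control. What allele the Het mice carry beyond that name, and the promoter that drives the recombinase, are not given in the sources used here. All mice were female, 72 to 74 days old, untreated, and of a mixed C57BL/6 and CD1 background, and skin was taken as the second resting phase of the hair cycle gave way to growth. Hair germ (HG) cells and bulge cells, which are both hair follicle stem cells (HFSCs), and total skin keratinocytes had been sorted on the YFP reporter at Rosa26, on CD34 and on P-cadherin. In set 2 the labels call the HG and bulge cells of cKO mice aberrantly quiescent and those of Het mice activated. In set 1 they call them quiescent in both genotypes. This makes 10 groups, 8 of them with 1 array, while total keratinocytes have 2 per genotype. The labels do not say how many mice gave an array or whether the same mice gave all fractions of a set. The spread behind each p-value is thus that between arrays, which limma draws toward the spread of other genes.

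A gap junction joins the cytoplasm of neighbouring cells. Connexin subunits assemble into a hemichannel in the membrane of a cell, and hemichannels of adjoining cells dock into a channel that passes ions and small molecules. Gja1 encodes Cx43, the most widely expressed connexin of skin keratinocytes. Gjb2 encodes Cx26 and Gjb6 encodes Cx30, both of the beta class and both present in the hair follicle and inner ear. Gjb5 encodes Cx31.1, a beta connexin of the epidermis that is reported to form few functional channels by itself. In humans, mutations of GJB2 cause deafness and keratoderma, and mutations of GJB6 cause Clouston syndrome, in which hair is sparse and nails are abnormal.

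The sequences upstream of the genes are shown because Gjb2 and Gjb6, next to each other on chromosome 14, differed in how much they moved between sets. Gjb2 was higher in set 2 in 6 of 6 pairs of arrays and Gjb6 in 5 of 6, the exception being Het bulge, where Gjb6 signal was low. The Het HG and Het bulge pairs are those of the choice. In the pairs outside it both genes were higher in set 2. Each line gives the 250 bases before the RefSeq gene start on mouse assembly GRCm38.p6, 5′ to 3′ on the strand of the gene, with matches to the searched motifs in capitals. They lie at chr10:56377050-56377299 (plus strand) for Gja1, chr14:57104703-57104952 (minus strand) for Gjb2, chr4:127358165-127358414 (minus strand) for Gjb5 and chr14:57133612-57133861 (minus strand) for Gjb6.
Gja1: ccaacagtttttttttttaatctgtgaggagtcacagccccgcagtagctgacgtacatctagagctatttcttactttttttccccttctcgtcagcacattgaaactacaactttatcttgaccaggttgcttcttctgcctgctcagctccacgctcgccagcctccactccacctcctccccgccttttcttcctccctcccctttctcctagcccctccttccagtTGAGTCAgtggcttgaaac
Gjb2: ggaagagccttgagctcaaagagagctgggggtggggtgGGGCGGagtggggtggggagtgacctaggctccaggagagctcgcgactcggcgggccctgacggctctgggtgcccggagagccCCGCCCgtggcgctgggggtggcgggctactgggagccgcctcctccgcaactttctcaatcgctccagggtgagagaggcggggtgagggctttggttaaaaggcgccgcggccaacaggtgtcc
Gjb5: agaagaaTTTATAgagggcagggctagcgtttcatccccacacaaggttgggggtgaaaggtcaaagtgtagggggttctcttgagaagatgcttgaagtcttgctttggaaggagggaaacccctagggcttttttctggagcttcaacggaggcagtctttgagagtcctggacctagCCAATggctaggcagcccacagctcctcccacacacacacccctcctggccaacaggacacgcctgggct
Gjb6: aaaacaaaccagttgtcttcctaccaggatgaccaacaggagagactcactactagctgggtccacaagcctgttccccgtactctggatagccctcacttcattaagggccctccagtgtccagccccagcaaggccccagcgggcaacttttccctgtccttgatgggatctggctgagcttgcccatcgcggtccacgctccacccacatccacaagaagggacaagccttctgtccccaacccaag

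The Gjb2 window was the richest of the 4 in G and C, with 69.2% of its bases and 18 CpG sites. The Gjb5 and Gjb6 windows had 54.4% and 56.8% G and C, and 3 and 5 CpG sites, and the Gja1 window had 6 CpG sites, against medians of 52.4% and 6 sites over 32851 such windows. GGGCGG, the core of the Sp1 site, matched in Gjb2 at 211 to 206 bases before the start and, on the opposite strand, at 126 to 121 bases before it. This motif is common, being found in 32.7% of all windows. In Gja1 the AP-1 motif TGANTCA matched at 19 to 13 bases before the start, and 6.75% of windows hold it. In Gjb5 the motif CCAAT matched at 70 to 66 bases before the start, as in 33.8% of windows somewhere, and TATAAA matched on the opposite strand at 243 to 238 bases, as in 12.4% of windows. The Gjb6 window held none of these letters. GTCTAGAC, the Smad element (0.167% of windows), and CTTTGAT, the Tcf/Lef motif (3.21% of windows), were in none of the 4 windows. None of these matches overlaps another. In the order of protein-coding genes Gjb2 lies between Gja3 and Gjb6, and Gjb6 is followed by Cryl1. Gja1 lies between Msl3l2 and Hsf2 on chromosome 10.

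Each deposited value is a MAS5 signal, the summary of the probes of a probe set in intensity units, which the authors scaled so that the trimmed mean of each array is 500. The lowest and highest array medians were 64.1 and 109. The targeted gene does not check the genotype labels here, because no source used here places its probes inside or outside the deletion. Tgfbr2 signal lay between 2533 and 4523 on the cKO arrays and between 1305 and 5373 on the Het arrays. The sort markers followed the fractions. Cd34, the bulge marker, lay between 21899 and 28386 on 4 bulge arrays, from 200.4 to 413 on 4 HG arrays and from 1048 to 2529 in total keratinocytes. The P-cadherin gene Cdh3 ranged from 598 to 1559 in HG and from 260.3 to 548 in bulge cells, and its range in HG overlapped that in total keratinocytes (642 to 1076).

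Gjb2, Gjb5 and Gjb6 have 1 probe set each, and Gja1 has 6. The Gja1 probe set with the highest mean signal stands for the gene. Over the 12 arrays its log2 signal had a Pearson r of 0.96, 0.95 and 0.89 with the next 3 bright probe sets. The r was 0.71 with a dim probe set that was at the signal floor on 4 arrays, and 0.15 with another that ranged from 72.9 to 609.5. These are descriptions over the same arrays.

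Gjb2 signal in the hair germ was 2031 in cKO set 2 and 331 in cKO set 1, and 15703 in Het set 2 and 441 in Het set 1. In bulge cells it was 1217 and 114 in cKO sets 2 and 1, and 935 and 105 in Het sets 2 and 1. In total keratinocytes it was 1839 and 176 in cKO sets 2 and 1, and 6101 and 233 in Het sets 2 and 1. The 6 arrays of set 2 all lay above the 6 arrays of set 1, and the highest value was that of activated Het HG.

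Gjb6 signal in the hair germ was 693 in cKO set 2 and 405 in cKO set 1, and 2323 in Het set 2 and 573 in Het set 1. In bulge cells it was 149.8 and 76.9 in cKO sets 2 and 1, and 84.5 and 130.3 in Het sets 2 and 1. In total keratinocytes it was 426 and 252 in cKO sets 2 and 1, and 931 and 243 in Het sets 2 and 1. The 4 bulge arrays were the lowest of the 12, with no overlap with either other fraction.

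Gja1 signal in the hair germ was 33506 in cKO set 2 and 23673 in cKO set 1, and 37889.6 in Het set 2 and 19559.85 in Het set 1. In bulge cells it was 12754 and 10907 in cKO sets 2 and 1, and 11952 and 11928 in Het sets 2 and 1. In total keratinocytes it was 25786 and 17549.6 in cKO sets 2 and 1, and 30118 and 17039 in Het sets 2 and 1. As for Gjb6, the bulge arrays formed a separate low group, while HG and total keratinocytes overlapped.

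Gjb5 signal in the hair germ was 1279 in cKO set 2 and 1755 in cKO set 1, and 455 in Het set 2 and 1728 in Het set 1. In bulge cells it was 2046 and 1876 in cKO sets 2 and 1, and 1933 and 1669 in Het sets 2 and 1. In total keratinocytes it was 4786 and 3270.2 in cKO sets 2 and 1, and 2274 and 2550.04 in Het sets 2 and 1. Here the order was turned: total keratinocytes lay above every stem cell array, and activated Het HG was the lowest of the 12.

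**Figure D1:**
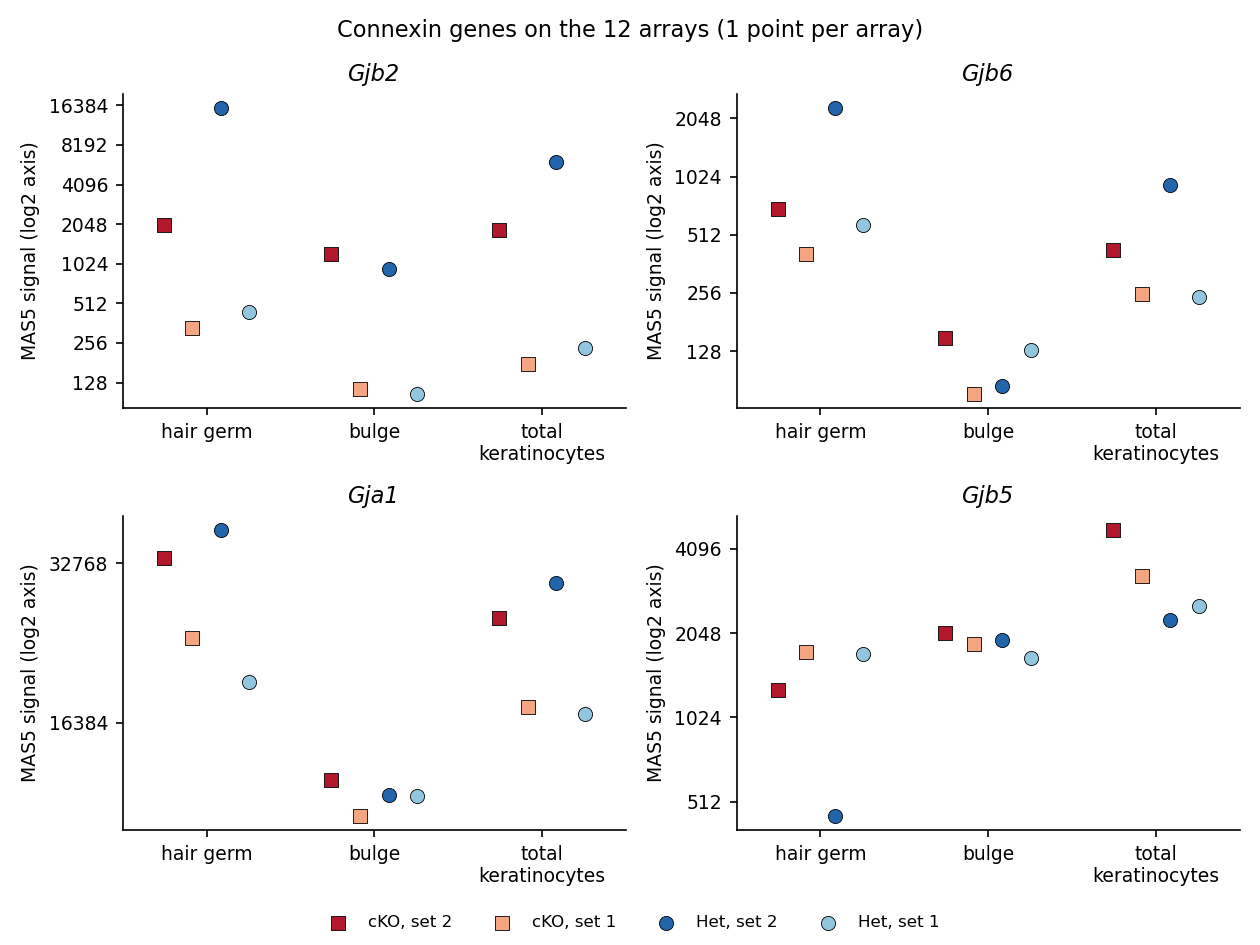
MAS5 signal of Gjb2, Gjb6, Gja1 and Gjb5 on each of the 12 arrays, on log2 axes that differ between panels, with 1 point per array and colour and shape for genotype and set. Gjb2 separates by set in each fraction, Gjb6 and Gja1 are lowest in bulge cells, and Gjb5 is lowest, at 455, in Het HG of set 2.

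The comparison of HG with bulge cells asks how the stem cell compartments of a follicle differ whatever the genotype and set. Gja1, Gjb2 and Gjb6 rose in HG relative to bulge, and each was higher in HG in 4 of 4 conditions. The background is large: 19.2% of 12589 genes passed the same test (1063 higher and 1351 lower in HG), against 3 of 4 connexin genes. Their median log2 difference was 1.66, and that of all genes tested was -0.02.

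Gjb6 differed most, by a log2 difference of 2.88 (SE 0.42, 95% interval 1.92 to 3.84, adjusted p = 0.00177 by limma on 8 arrays). Its largest single gap was in Het set 2, with 2323 in HG and 84.5 in bulge cells (27.5-fold), and in the other conditions HG was 4.40-fold to 5.27-fold higher. Gja1 differed by 1.22 (SE 0.20, 95% interval 0.77 to 1.68, adjusted p = 0.00321), with single conditions between 1.64-fold and 3.17-fold. Of its other probe sets, the 3 bright ones, fitted as probe sets, gave 1.18, 1.34 and 2.01 and passed the threshold, while the one with an r of 0.15 gave 0.91 (adjusted p = 0.174) and the dimmest did not pass the filter.

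Gjb2 differed by 2.10 (SE 0.44, 95% interval 1.11 to 3.10, adjusted p = 0.0107). Without the arrays of Het set 2 it was 1.45 (adjusted p = 7.98e-04). The gap was 16.8-fold in Het set 2, 4.21-fold in Het set 1, 2.90-fold in cKO set 1 and 1.67-fold in cKO set 2. The Gjb2 call was lost without the arrays of Het set 1 (adjusted p = 0.0529), with a common prior spread for all genes (0.0537), without the condition as a block (0.268) and without the filter on low signals (0.149). Without that filter the Gja1 (0.0618) and Gjb6 (0.0785) calls were lost too. Gjb5 did not pass: it was -0.70 (95% interval -1.41 to 0.01, adjusted p = 0.155), lower in HG in 3 of 4 conditions and by 4.25-fold in Het set 2, and without the arrays of Het set 2 it was -0.24.

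Other cell populations differed between these fractions too. The 6 fibroblast markers were all lower in HG (median log2 difference -3.51), with a summed signal of 15126 to 28934 on the HG arrays and 123172 to 280839.8 on the bulge arrays. Of 7 melanocyte markers 6 were higher in HG and 1 was lower (median 2.69), with sums of 11494.5 to 20333 in HG and 7146 to 9327 in bulge cells. No fibroblast or melanocyte marker was at the floor on any array. All 5 measured cell division markers were higher in HG (median 2.20), with sums of 8567 to 30032 in HG and 2181 to 3927 in bulge cells. Of 10 hair shaft and inner root sheath genes 4 rose in HG, among them Krt28 (2.60, adjusted p = 0.0205) and Krt35 (3.49, adjusted p = 0.00656), and all 10 were higher there (median 1.56). Their summed signal was 2905 to 55938 in HG and 1136 to 5051 in bulge cells. Of 7 bulge stem cell markers 4 fell in HG (median -1.82), with sums of 29882 to 76590.3 in HG and 121229 to 141051 in bulge cells. Of 6 sebaceous markers 4 fell (median -0.94), with sums of 18307.5 to 34481 in HG and 26812 to 54128 in bulge cells. The part of these populations in the connexin differences was not tested. In such bulk samples fewer cells of a type and less RNA per cell cannot be told apart.

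The comparisons with total keratinocytes ask how each stem cell fraction differs from the wider epithelium of the skin. Against total keratinocytes, Gjb5 fell in HFSCs, taken as the mean of HG and bulge, with a log2 difference of -1.07 (SE 0.26, adjusted p = 0.0138 by limma on 12 arrays). It was the only 1 of the 4 connexin genes past the threshold there, where 17.1% of 12749 genes passed. The median over the 4 genes was -0.37 and over all genes 0.05. Of the other Gja1 probe sets 1, fitted as a probe set, passed there too (-0.99, adjusted p = 0.0123). Gja1 (-0.28), Gjb2 (-0.22) and Gjb6 (-0.46) had adjusted p-values between 0.223 and 0.701, and for these 3 genes HG lay above and bulge below total keratinocytes.

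In HG alone, Gjb5 was lower than in total keratinocytes by a log2 difference of -1.42 (SE 0.30, 95% interval -2.06 to -0.78, adjusted p = 0.0130), in 4 of 4 conditions. This was 1 of 4 connexin genes, where 10.8% of genes passed. Gjb6 (0.99, adjusted p = 0.117), Gjb2 (0.83, adjusted p = 0.179) and Gja1 (0.34, adjusted p = 0.225) were each higher in HG in 4 of 4 conditions without passing. Fitted as probe sets, the other bright ones of Gja1 gave 0.08, 0.13 and 0.01, and in Het set 1 each was lower in HG. The one with an r of 0.15 gave 1.82 and the dimmest -0.73, and none of these passed. Of 12 epidermal differentiation markers 7 fell in HG as Gjb5 did (median log2 difference -1.12). Their summed signal was 29656 to 108107 on the HG arrays and 150277 to 189741 in total keratinocytes, with its lowest value in Het HG of set 2. Their part in the Gjb5 difference was not tested.

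In bulge cells 3 of 4 connexin genes fell relative to total keratinocytes, where 24.2% of genes passed. Gjb6 gave -1.90 (SE 0.39, adjusted p = 0.00341), Gja1 -0.89 (SE 0.17, adjusted p = 0.00253) and Gjb2 -1.27 (SE 0.39, adjusted p = 0.0311). Gjb5 gave -0.72 (95% interval -1.36 to -0.08, adjusted p = 0.0976). All 4 genes were lower in bulge in 4 of 4 conditions, and the Gjb6 gap reached 11.0-fold in Het set 2. The Gjb2 call was lost without total keratinocytes of cKO set 2 (adjusted p = 0.0776), Het set 2 (0.0930) or Het set 1 (0.0683), and without all arrays of cKO set 1 (0.0556) or Het set 1 (0.0997). Without all arrays of Het set 2 its difference was -0.79 (adjusted p = 0.0362), and Gjb5 then passed (-0.88, adjusted p = 0.0110). The Gjb2 call was also lost without the filter on low signals (0.127), with a common prior spread (0.0693) and without the block (0.544). The Gjb5 calls against total keratinocytes rested on the cKO total keratinocyte array of set 2, without which the adjusted p was 0.0864 for HFSCs and 0.0588 for HG. Without all arrays of cKO set 2 it was 0.122 for HFSCs and 0.0983 for HG, and without the filter it was 0.0833 and 0.0836.

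Markers of other populations moved in bulge against total keratinocytes as well. Of 6 fibroblast markers 6 rose in bulge (median log2 difference 2.68), with sums of 123172 to 280839.8 in bulge and 18188 to 46851 in total keratinocytes. Of 12 epidermal differentiation markers 8 fell and 1 rose (median -1.23), with sums of 95525 to 146156 in bulge and 150277 to 189741 in total keratinocytes. All 5 measured cell division markers fell (median -1.29), with sums of 2181 to 3927 in bulge and 4911 to 13146 in total keratinocytes. Of 7 bulge stem cell markers 6 rose (median 1.88), with sums of 121229 to 141051 in bulge and 49394.5 to 56321 in total keratinocytes. In HG against total keratinocytes 6 of 7 melanocyte markers (median 2.21) and 3 of 5 cell division markers (median 0.91) rose, and 3 of 6 fibroblast markers fell (median -0.66). Their part in the connexin differences was not tested.

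**Figure D2:**
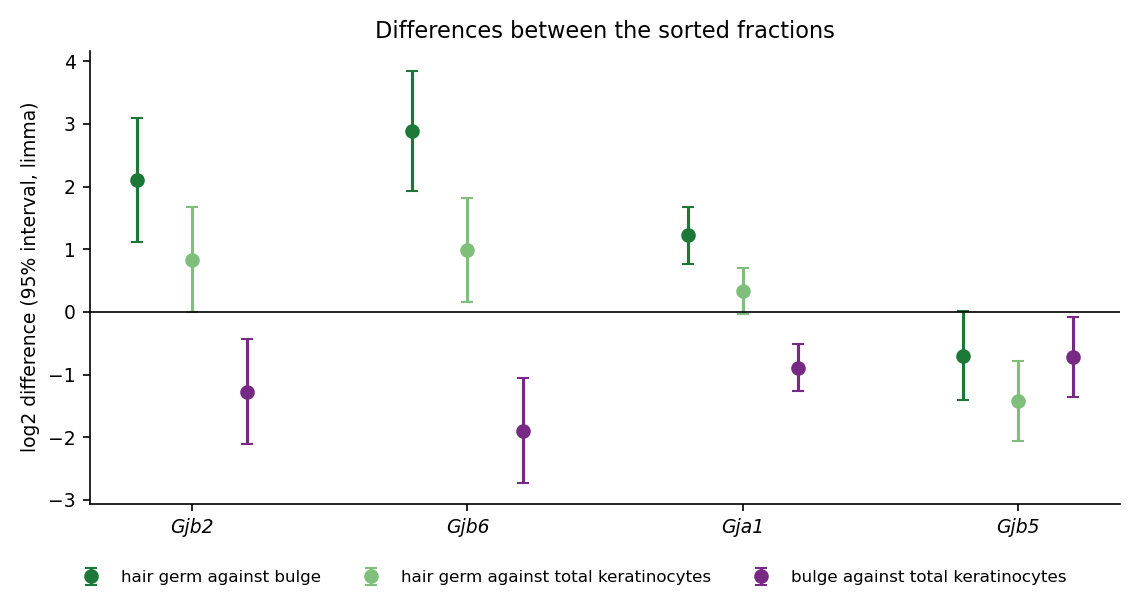
Log2 differences of the 4 connexin genes between fractions, HG against bulge, HG against total keratinocytes and bulge against total keratinocytes, with points for the limma estimates and bars for their 95% intervals. For Gjb6, Gja1 and Gjb2 the estimates lie above 0 in HG and below 0 in bulge cells, and for Gjb5 all 3 lie below 0.

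By mean log2 signal over 4 arrays, Gjb6 stood at 9.61 ± 1.10 in HG, 6.73 ± 0.47 in bulge and 8.63 ± 0.90 in total keratinocytes (SD, n = 4 each). The order of HG over total keratinocytes lies within this spread, and bulge lies below both. Gja1 had the same order, with 14.76 ± 0.44 in HG, 13.53 ± 0.09 in bulge and 14.42 ± 0.41 in total keratinocytes. Gjb5 stood at 10.17 ± 0.92 in HG, 10.87 ± 0.12 in bulge and 11.59 ± 0.48 in total keratinocytes, and HG and bulge overlapped. For Gjb2 the spread was about as large as the steps between fractions or larger, with 10.52 ± 2.55 in HG, 8.42 ± 1.90 in bulge and 9.69 ± 2.45 in total keratinocytes. Each fraction holds arrays of both sets, so this spread includes the difference between sets.

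Sets 2 and 1 were compared separately in each fraction and genotype, and whatever else differed between the collections of a set cannot be told apart from it. The sets of Het HFSCs are the contrast on which the genes were chosen, so they are described only. Gjb2 was higher in activated than in quiescent Het HG by 35.6-fold and in activated than in quiescent Het bulge by 8.92-fold, a mean log2 difference of 4.15 ± 1.41 (SD, n = 2 fractions). Activation and set cannot be told apart in these cells. Gjb6 moved by 2.02 in Het HG and -0.63 in Het bulge, Gja1 by 0.95 and 0.003, and Gjb5 by -1.92 and 0.21 (log2). In size, the difference was larger in HG than in bulge for each of the 4 genes.

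In total keratinocytes, which the choice did not use, Gjb2 rose in set 2 by a log2 difference of 4.05 (SE 0.30, 95% interval 3.35 to 4.75, adjusted p = 0.00848 by limma on 4 arrays with genotype as a term). The difference was 10.4-fold in cKO and 26.2-fold in Het total keratinocytes (log2 3.38 and 4.71). A fit of 4 arrays leaves few residual degrees of freedom, so its SE rests largely on the spread that limma takes from other genes. It was the only called gene of the 4, where 1.96% of 11121 genes passed. Gja1 (0.69, adjusted p = 0.0510) and Gjb6 (1.35, adjusted p = 0.0554) did not pass the threshold of 0.05, although both were higher in set 2 in both genotypes. Fitted as probe sets over the whole array, both passed (0.0220 and 0.0245), as did 4 of the other Gja1 probe sets. That fit called a larger share of the whole table, 11.6% of 22251 probe sets. Gjb5 was higher in set 2 in cKO (0.55) and lower in Het (-0.17), with 0.19 overall (adjusted p = 0.575). With genotype left out of the fit the adjusted p of Gjb2 was 0.0684, with a common prior spread it was 0.102, and without the filter it was 0.372.

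The cKO stem cells of set 2 are called aberrantly quiescent, and they were quiescent by label in both sets. Gjb2 was higher in set 2 by 6.14-fold in cKO HG and 10.7-fold in cKO bulge, a log2 difference of 3.02 (SE 0.62, 95% interval 1.61 to 4.42). Its unadjusted p was 0.000856 and its adjusted p 0.648 by limma, and 0 of 4 connexin genes were called. This fit takes its spread from the Het stem cell arrays too, and counts HG and bulge of a set as separate arrays. Its intervals and p-values therefore do not measure the spread between independent cKO sets. No gene at all was called in this comparison (0% of 12589 genes by limma, with 777 at an unadjusted p under 0.05). Gjb6 gave 0.87 (adjusted p = 0.826), Gja1 0.36 (0.828) and Gjb5 -0.17 (0.959). Fitted as probe sets, the other bright ones of Gja1 gave 0.11, 0.21 and 0.11, and the one with an r of 0.15 gave -1.38.

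A further fit, added after the values were seen, put the total keratinocyte pairs and the cKO HG and bulge pairs together, which are the 4 pairs outside the choice. In it Gjb2 rose in set 2 by 3.53 (SE 0.28, 95% interval 2.91 to 4.15, adjusted p = 0.00106), higher in 4 of 4 pairs. This was 1 of 4 connexin genes, where 0.568% of 12327 genes passed. Gjb6 gave 1.11 (adjusted p = 0.0573) and Gja1 0.53 (adjusted p = 0.0829), each higher in 4 of 4 pairs, and Gjb5 gave 0.01 (95% interval -0.35 to 0.38). For Gja1 this holds for the probe set used. In cKO HG other bright Gja1 probe sets were lower in set 2 (16702 against 17401, and 9549 against 13450) or higher (12849 against 11440). The median of all genes was -0.07. The cKO pairs are fractions of the same sets, and the fit counts them as separate pairs. Its p-values therefore do not measure the spread between independent sets.

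**Figure D3:**
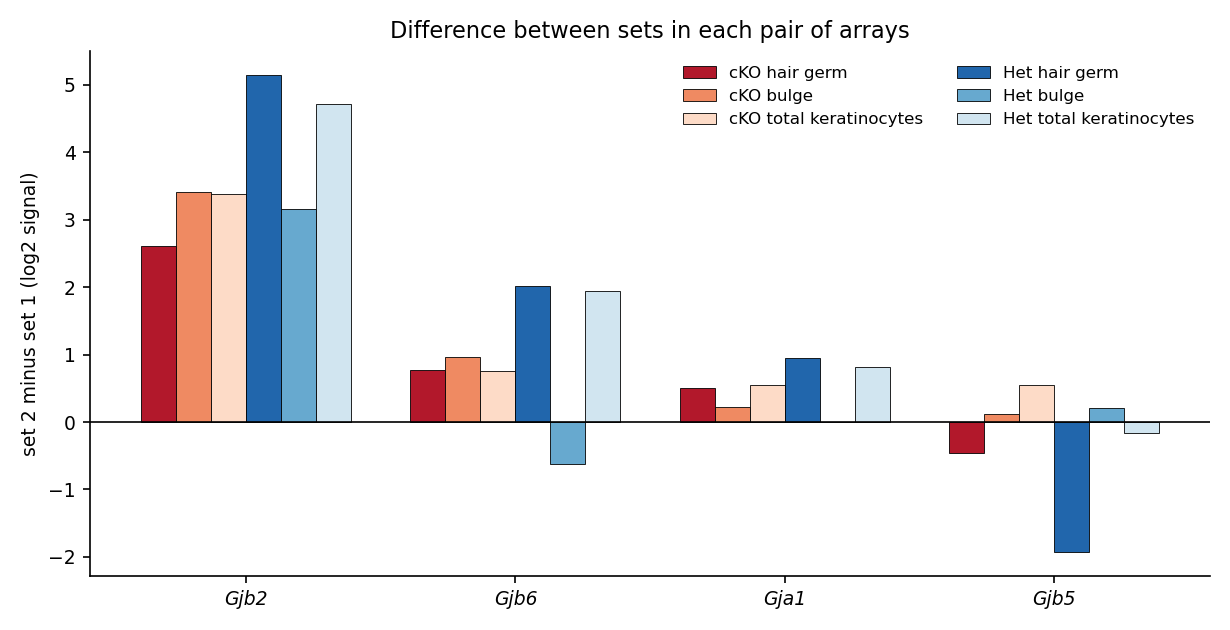
Log2 difference of set 2 minus set 1 for each connexin gene in 6 pairs of arrays, with 1 bar per pair, coloured by genotype and fraction. Bars of Gjb2 run from 2.62 to 5.15, those of Gja1 and Gjb6 are smaller, and Gjb5 has its largest bar, -1.92, in Het HG.

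Genes of the hair shaft and inner root sheath, the layers built by a growing follicle, moved with set as Gjb2 did. Of 10 such genes 7 rose in total keratinocytes of set 2 (median log2 difference 3.85 over the 10), among them Krt25 (6.40, adjusted p = 0.00202), Krt35 (5.47, adjusted p = 0.0274) and Krt73 (4.04, adjusted p = 0.0286). In the fit of 4 pairs 6 of 10 rose (median 3.21). In cKO HFSCs 0 of 10 were called, and all 10 were higher in set 2 (median 2.56).

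The summed signal of the 10 genes was 6039 in cKO HG of set 2 and 2905 in set 1, and 55938 in Het HG of set 2 and 3723 in set 1. It was 5051 and 1136 in cKO bulge, and 2455 and 1389 in Het bulge. In total keratinocytes it was 5026 and 1315 in cKO, and 25917 and 1384 in Het. On every pair the sum was higher in set 2, and the 2 highest sums were on the 2 arrays with the highest Gjb2. Krt25, Krt35 and Krt73 were at the floor on some arrays of set 1, and no gene of the list was at the floor in set 2. The part of such cells in the Gjb2 difference was not tested.

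Fibroblast markers went the other way, with 4 of 6 lower in total keratinocytes of set 2 (median -1.11). Of 5 measured cell division genes 1 rose there, Cdc20 (1.04, adjusted p = 0.0313), and all 5 were higher in set 2 (median 0.68). Their summed signal was 5784 and 4911 in cKO total keratinocytes of sets 2 and 1, and 13146 and 6024 in Het. Signal of 7 genes that respond to tissue dissociation was highest in cKO total keratinocytes of set 2 (a sum of 136506) and Het bulge of set 2 (115248), against 21887 to 57712.5 on the other 10 arrays.

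By Pearson r of log2 signal over the 12 arrays, among 12749 genes, the 5 genes most like Gjb2 were Krt28 (0.98), Krt25 (0.97), Sucla2 (0.96), Adamts20 (0.96) and Krt35 (0.96). Krt25, Krt28 and Krt35 encode keratins of the inner root sheath or hair shaft, Sucla2 a subunit of a citric acid cycle enzyme and Adamts20 a secreted metalloprotease. Krt28 had signals of 766, 654 and 696 in cKO HG, bulge and total keratinocytes of set 2, and 212, 44.1 and 115 in set 1. In Het the values were 10975, 280.5 and 4472 in set 2, and 296, 48.3 and 111 in set 1. These correlations describe 12 arrays that share sets, genotypes and fractions.

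**Figure D4:**
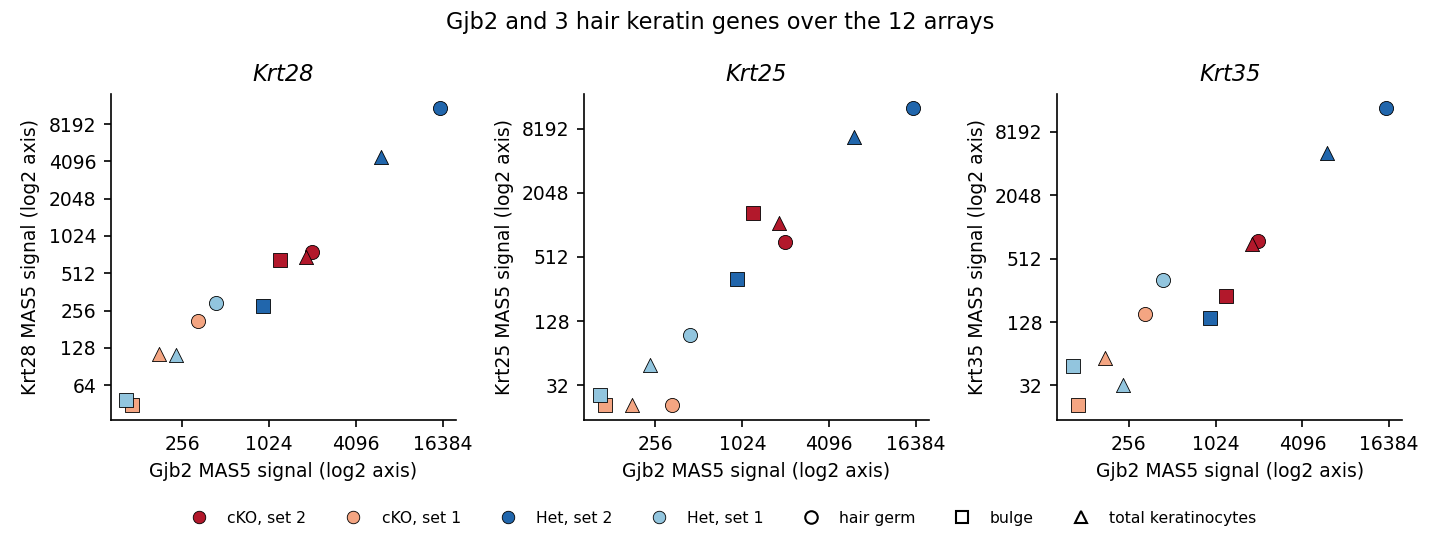
MAS5 signal of Krt28, Krt25 and Krt35 against that of Gjb2 on the 12 arrays, on log2 axes, with colour for genotype and set and shape for fraction. Keratin values below the floor of 20.7 are drawn at it. Set 2 arrays lie to the upper right of set 1 arrays of the same fraction, and Het HG and Het total keratinocytes of set 2 lie farthest out.

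Among the 4 connexins, Gja1 and Gjb6 followed each other most closely, with r = 0.95 and Spearman rho = 0.965 over 12 arrays, and r = 0.95 without the 2 arrays farthest from the median. Gjb2 had r = 0.74 with Gja1 and 0.75 with Gjb6, which became 0.59 and 0.43 without the 2 farthest arrays. Gjb5 had r of -0.34, -0.43 and -0.46 with Gja1, Gjb2 and Gjb6. Without the 2 farthest arrays these were 0.44, 0.09 and -0.13, so the negative values rest on few arrays. Gjb2 and Gjb6 are neighbours on the chromosome, yet in Het bulge Gjb2 was 8.92-fold higher in set 2 while Gjb6 was 1.54-fold lower. Those Gjb6 signals were low (84.5 in set 2 and 130.3 in set 1), and in every other pair both genes were higher in set 2.

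The genes most like Gja1 were Arg2 (0.97), Prim1 (0.96) and Gmnn (0.95), and those most like Gjb6 were Arg2 (0.97), Rnmt (0.97) and Gmnn (0.97). Arg2 encodes mitochondrial arginase, Prim1 a DNA primase subunit, Gmnn the replication licensing inhibitor geminin and Rnmt the enzyme that methylates the mRNA cap. Arg2 signal was 1400.3 in cKO HG, 225 in cKO bulge, 2932 in Het HG and 142 in Het bulge of set 2, so it too separated HG from bulge. Those most like Gjb5 were Itpkc (0.98), an inositol phosphate kinase gene, Clic3 (0.97), of the chloride intracellular channel family, and Pla2g2f (0.96), a secreted phospholipase gene.

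The genotype comparison asks whether loss of Tgfbr2 changes the connexin genes across all fractions and sets. Over 12 arrays, with fraction and set as a block, 0 of 4 connexin genes were called between cKO and Het, and 0% of 12749 genes passed (1099 had an unadjusted p under 0.05 by limma). Because 4 of the 6 Het arrays are those of the choice, this count is no independent test of the 4 genes, and their differences are given as a description. The mean log2 difference of Gjb2 was -0.83, lower in cKO in 4 of 6 pairs, and without the HG pair of set 2 it was -0.41. That of Gjb5 was 0.53, higher in cKO in 6 of 6 pairs, by 1.015-fold to 2.81-fold, and 0.34 without the HG pair of set 2. That of Gjb6 was -0.54, and -0.30 without the same pair. That of Gja1 was -0.02, higher in cKO in 3 of 6 pairs, and -0.25 with the mean of all its probe sets. Fitted as probe sets, the other bright ones of Gja1 gave -0.04, -0.11 and -0.44. The one with an r of 0.15 gave 0.06 and the dimmest -0.95.

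Within set 2 the genotypes stood further apart, but the HG and bulge pairs share the Het arrays of the choice, and none of these differences is tested. In HG of set 2, Gjb2 was 7.73-fold lower, Gjb6 3.35-fold lower and Gjb5 2.81-fold higher in cKO than in Het. In total keratinocytes of set 2, Gjb2 was 3.32-fold lower, Gjb6 2.18-fold lower and Gjb5 2.105-fold higher in cKO. In bulge of set 2 the first 2 lay on the other side, with Gjb2 1.30-fold and Gjb6 1.77-fold higher in cKO. Over the 3 fractions the mean log2 difference of Gjb2 was -1.43 ± 1.69 in set 2 and -0.23 ± 0.31 in set 1 (SD, n = 3 each). That of Gjb5 was 0.88 ± 0.72 in set 2 and 0.18 ± 0.17 in set 1, that of Gjb6 -0.68 ± 1.34 and -0.40 ± 0.42, and that of Gja1 -0.10 ± 0.17 and 0.06 ± 0.20. The Gja1 values are those of the probe set used. In HG of set 2 the other bright Gja1 probe sets read 16702, 9549 and 12849 in cKO against 31803, 24474 and 22528 in Het. Under other processing settings the set 2 difference of Gja1 ran from -0.49 to -0.10. The hair shaft and inner root sheath sum was also lower in cKO on the HG and total keratinocyte arrays of set 2 and higher in cKO bulge, and its part was not tested.

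Of 10 other connexin genes analysed here, 6 were never above the pooled median signal of 84.7 and none was above it on every array. Gja3, the chromosomal neighbour of Gjb2, was at low signal, with a median of 25.1. Gja4 and Gjc1, connexins known from blood vessels, passed the filter. Gja4 rose in bulge relative to total keratinocytes (1.13, adjusted p = 0.0435 by limma) and was called in no other comparison. Its signal was low, with a median of 70.5, at the floor on 2 arrays and above the pooled median on 5. Of 5 endothelial markers 3 were tested there, and these 3 rose as well. Gjc1 was called in none.

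Pannexins form membrane channels related to connexin hemichannels. Panx1 rose in HG relative to bulge (1.08, adjusted p = 0.00773), as Gja1, Gjb2 and Gjb6 did. It fell in HFSCs (-1.01, adjusted p = 0.00151) and bulge (-1.55, adjusted p = 8.81e-05) relative to total keratinocytes. Panx3 was above the pooled median on 12 arrays and called in no comparison, and Panx2 never exceeded that median.

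Connexin partners and regulators include scaffold, trafficking and kinase genes, and 13 of 14 were measured. In HG against bulge 1 of 13 fell, Ccn3 (-1.94, adjusted p = 0.00780), which encodes a matricellular protein that binds Cx43. In bulge against total keratinocytes 4 rose and 3 fell. Ccn3 (2.27, adjusted p = 0.00106), the kinase gene Prkca (0.75, adjusted p = 0.00795), the caveolin gene Cav1 (0.92, adjusted p = 0.0462) and the ubiquitin ligase gene Nedd4 (0.56, adjusted p = 0.0448) rose. Tjp1, which encodes the scaffold ZO-1 that binds the tail of Cx43 (-0.57, adjusted p = 0.0463), Prkcd (-0.58, adjusted p = 0.0290) and the sorting gene Tsg101 (-0.43, adjusted p = 0.0480) fell. In HG against total keratinocytes Nedd4 alone rose (0.73, adjusted p = 0.0284). For HFSCs together 3 rose (Ccn3, Nedd4 and Prkca) and Prkcd fell. None of the measured partners was called between genotypes, between sets of cKO HFSCs, between sets of total keratinocytes or in the fit of 4 pairs.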

How the data were processed

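Gene expression was measured on 12 arrays, and the deposited values are MAS5 signals, intensity units on a linear scale (MAS5 per the submitters' processing notes, with no version). Per the deposited values, each array had been scaled by the authors to a trimmed mean of 500 (2% left out at each end), which was checked on all 12. No normalization was added.

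The arrays carry 45101 probe sets, 64 of them controls that were not used. A single gene symbol was given for 34945 of the 45037 kept, several for 932 and none for 9160, and 34741 symbols came through the gene ID. The probe set with the highest mean log2 signal stood for a gene, which gave 18193 genes. Signals under the pooled 25th percentile (20.7) were set to it before log2, and genes were tested where the signal was above the pooled median (84.7) on no fewer than 2 of the fitted arrays.

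Tests were two-sided, with limma 3.58.1 in R 4.3.3 (lmFit, eBayes with trend), Benjamini-Hochberg adjustment over all genes tested and a threshold of 0.05. Fractions were compared within the 4 conditions of genotype and set (a block), genotypes within fraction and set (a block), sets of cKO HFSCs in a fit of the 8 stem cell arrays that includes fraction, and sets of total keratinocytes with genotype as a term. The set number comes from the sample titles, and the cKO and Het total keratinocyte arrays of a set deviated together (r = 0.49 over 11121 genes). The fits were tested on simulated data. The number of arrays limits the precision.

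The 4 genes, the lists of related and marker genes and the tests were chosen with earlier results of these data known, so they are not independent of them. Named are the 4 genes, list genes that were called or lay above the pooled median, up to 3 markers of a list, the genes with the highest r to each connexin gene (5 for Gjb2, 3 for the others) and chromosomal neighbours. Tgfbr2, Cdh3 and Cd34 were added as checks, and markers beyond these were named after their values were seen. Upstream sequences are those of RefSeq on GRCm38.p6, matched for 4 of 4 genes by symbol. Marker lists covered epidermal differentiation, basal and wound-activated keratinocytes, hair shaft and inner root sheath, bulge stem cells, sebaceous gland, fibroblasts, melanocytes, immune and endothelial cells, cell division and dissociation stress. Alternatives were quantile normalization, other floors and filters, other uses of probe sets, eBayes without trend, no block, all 12 arrays in a fit and leaving out arrays in turn.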

Additional observations from a re-analysis of the deposited data

Results flagged for a closer look

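The difference of Gjb5 between sets 2 and 1 had opposite signs in the stem cell fractions. In HG it was lower in set 2 in both genotypes, by a log2 difference of -0.46 in cKO and -1.92 in Het. In bulge cells it was higher in set 2 in both, by 0.13 in cKO and 0.21 in Het. The mean difference in HG minus that in bulge was -1.36. This difference between fractions was not tested, since the Het arrays are those on which the genes were chosen. It was singled out because every HG pair moved one way and every bulge pair the other, and each side holds 2 pairs of single arrays.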

How the results depend on the processing

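Of 104 recomputed counts of called connexin genes 90 stayed within 1.5 times the main count, and of 415 recomputed single values with an adjusted p 380 kept their direction and side of the threshold. Of 56 values without a test 48 moved by less than their spread (SD between fractions, or SE). Without the filter on low signals, 0 connexin genes were called in HG against bulge and in HFSCs and HG against total keratinocytes. The same held for total keratinocytes between sets. In these fits 374 to 1784 of 18193 genes at the floor on every array entered. Of all genes, 648 were still called in HG against bulge. Against total keratinocytes 1260 were called in HFSCs and 348 in HG, and 0 were called between sets of total keratinocytes. Between those sets the count of called connexin genes was 2 with a filter at the pooled 75th percentile. It was 3 with the mean of all probe sets or every probe set fitted on its own. The shares of the whole table called there were 6.55%, 7.75% and 11.6%, against 1.96% in the main fit. The count was 0 with eBayes without trend and 0 with no replicate block. Leaving out arrays in turn gave counts of 0 to 1 for HFSCs and 0 to 2 for HG against total keratinocytes, and the counts of 0 were those without the cKO arrays of set 2 or cKO total keratinocytes of set 2 (adjusted p of Gjb5 up to 0.122). In HG the count of 2, with Gjb6 added, was that without the Het arrays of set 2.

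Values that changed sign had not been called. Gja1 between genotypes ran from -0.079 to 0.021 as arrays were left out, and was -0.25 with the mean of all probe sets. Gja1 between sets of cKO HFSCs was -0.22 with the mean of all probe sets. Gjb5 there ran from -0.57 to 0.24 as arrays were left out. Without the block the adjusted p of Gjb2 was 0.268 in HG against bulge and 0.544 in bulge against total keratinocytes. Leaving out the Het or the cKO pair gave set differences of Gjb2 in total keratinocytes of 3.38 and 4.71. Gene counts over the whole table ran from 648 to 3877 in HG against bulge, 850 to 3459, 269 to 2036 and 1909 to 4988 for HFSCs, HG and bulge against total keratinocytes, and 0 to 2581 between sets of total keratinocytes, and 0 genes were called between genotypes or between sets of cKO HFSCs under each alternative run.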
